A study of Homo sapiens with 16 samples.

Results

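The genes described here encode the chaperonins, the ring-shaped chaperones that enclose a protein while it folds. They are the 8 subunits of the cytosolic chaperonin TRiC (TCP1, CCT2, CCT3, CCT4, CCT5, CCT6A, CCT7 and CCT8) and the mitochondrial pair HSPD1 (HSP60) and HSPE1 (HSP10). They were taken by gene symbol, not by value, from the authors' table of normalized counts. The list of genes was itself chosen with earlier results of these data known. These 10 genes were found among 58051 gene identifiers, and all 10 were among the 13765 that had a mean of at least 10 and entered the test. RNA came from P493-6, an immortalised line of human B cells. In this line doxycycline represses a MYC transgene, and oestrogen switches on a viral transcription factor. Cells with high MYC were kept in ordinary medium without these additives. For medium MYC the medium contained doxycycline at 0.1 µg/mL and beta-estradiol at 1 µM, starting 24 h before treatment. Both kinds of culture then received IMP1088 at 100 nM or its DMSO control, and the titles give 24 h for all of them. IMP1088 blocks N-myristoyltransferases, the enzymes that attach myristate to proteins. Each of the 4 groups had 4 libraries, all from this 1 cell line. MYC level, doxycycline and beta-estradiol cannot be told apart in this design. The labels do not say whether replicates were separate cultures, so p-values measure the spread between these libraries, which may be technical.

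TRiC is a closed double ring in which each position is held by a different, related subunit, and its lid is built into the subunits. It folds actin and tubulin, which depend on it, and many other cytosolic proteins. HSP60 and HSP10 work in the mitochondrial matrix: HSP60 forms the chamber, and HSP10 is the separate lid that closes it over imported proteins. The HSPD1 and HSPE1 genes lie head to head and are transcribed away from each other, and both are classic heat shock genes.

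Libraries held from 8755296 to 13858534 reads, recovered from the deposited values, and between 18899 and 21081 genes above 0. MYC ran from 29693 to 34375 normalized counts in the high MYC DMSO libraries and from 904 to 1022 in the medium MYC DMSO libraries, which matches the labels. MYC itself was also higher with IMP1088, with a mean of 47542 against 31649 at high MYC (log2 difference 0.59, limma's adjusted p = 7.24e-10) and 1382 against 959 at medium MYC (0.53, limma's adjusted p = 2.74e-09), so the MYC level was not the same in both treatments. All 10 B cell markers had a mean of at least 10 in each group. Their summed normalized counts ran from 43452 to 45980 in high MYC DMSO libraries, from 36755 to 37957 with IMP1088, from 69174 to 73399 in medium MYC DMSO libraries, and from 63147 to 64875 with IMP1088. Not every B cell marker followed the sum: from high to medium MYC in DMSO, MS4A1 went from a mean of 11652 to 22639 but CD79A from 3096 to 2854. Other marker lists were far lower, but most also differed with the MYC setting. From high to medium MYC in DMSO the 4 fibroblast markers went from a summed 122 to 134 up to 571 to 649 (COL1A1 from a mean of 7.09 to 164, PDGFRB from 123 to 436), with DCN at 0 in all groups. The 5 myeloid markers went from 118 to 136 up to 263 to 291, and the 5 T cell markers from 90.5 to 108 up to 185 to 243. The genes within these lists did not move together. ITGAM went from a mean of 78.7 to 221 but LYZ from 47.8 to 49.4, and TRAC went from 27.8 to 132 but CD3G from 28.7 to 21.6. The 4 natural killer markers went from 2.25 to 4.41 up to 19.8 to 26.5, with NCAM1 at 0 in all groups. The sums of the 4 epithelial markers overlapped, at 56.5 to 70.8 and 60.5 to 78.8, with KRT18 at 0 in all groups. Of these markers, EPCAM went from a mean of 62.1 down to 13.1 and CDH1 from 0.188 up to 55.4. With IMP1088 the fibroblast sums were 68.1 to 96.8 at high MYC and 497 to 537 at medium MYC. The part of these marker differences in the results below was not tested.

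The shared control region of HSPD1 and HSPE1 is shown first, because these were the chaperonin genes with the largest difference between MYC levels. In the RefSeq promoter windows (GRCh38.p14, 250 bases before to 50 bases after each start site), the main HSPD1 start at position 197500274 and the HSPE1 start at position 197500379 of chromosome 2 were separated by 104 bases. A CACGTG E-box, the letters to which MYC with its partner MAX is known to bind, lay in this interval. It began 22 bases before the HSPE1 start and 88 bases before the HSPD1 start, so both windows held it. The following 30 bases are from chr2:197500345-197500374, read on the plus strand, with the E-box in capitals. GENCODE release 29 annotates this stretch as 5′ UTR of longer HSPE1 transcripts.
HSPD1-HSPE1 E-box: gggtgattttttCACGTGtcgccagggccg
Among the 12 windows of 9 chaperonin genes (none was found for CCT6A), these were the only 2 with CACGTG on either strand, against 7.26% of all 35116 windows. Both hold the same 1 site, so the 2 windows are not separate matches and no enrichment is shown. A match describes the letters and shows no binding.

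Heat shock elements, the sites read by the heat shock factors, are made of inverted repeats of GAA and TTC. TTCNNGAA was found in windows of HSPD1 and CCT4 and in 7.74% of all windows. GAANNTTC was found in windows of HSPD1, CCT2 and TCP1 and in 6.77% of all windows. Both motifs are palindromes, so a match counts on both strands, and the matches in HSPD1 overlapped one another. The matches are shown with the motif in capitals, each read on its gene's strand: HSPD1 from chr2:197500062-197500090, CCT4 from chr2:61888607-61888624, TCP1 from chr6:159789820-159789839 and CCT2 from chr12:69585794-69585813.
HSPD1: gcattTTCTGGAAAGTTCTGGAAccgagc
CCT4: gccgctTTCTGGAAggtt
TCP1: tgaggcGAAGGTTCaacctc
CCT2: agcgaaGAAATTTCtagtgt
The HSPD1 match belongs to the window of a second start site at position 197499840. It holds 2 copies of TTCNNGAA set 2 bases apart. This longer run, searched after the sequence had been seen, was present in 9 of all windows (0.0256%). TGATGNAA, a core found in mitochondrial stress response elements, was in none of the 12 windows and in 3.62% of all windows.

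**Figure D1:**
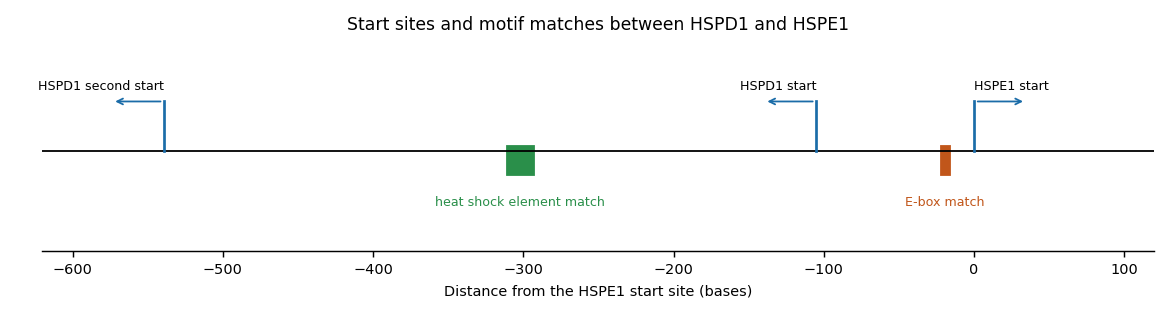
Start sites and motif matches between HSPD1 and HSPE1, drawn to scale as distance in bases from the HSPE1 start site, with arrows for the direction of transcription. The E-box lies between the divergent start sites, and the heat shock element match lies between the 2 HSPD1 start sites, at positions -311 to -294 from the HSPE1 start.

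At medium MYC all 10 chaperonin transcripts were lower than at high MYC, in DMSO and in IMP1088 alike. In DMSO the mean of HSPD1 fell by 66.5% and that of HSPE1 fell by 58.6%. Of the TRiC subunits TCP1 fell by 47.2% and CCT8 fell by 35.7%, with 4 others between these, while CCT4 fell by 24.2% and CCT6A fell by 13.5%. This comparison asks how the chaperonins differ with the MYC setting, and changes are relative to the other genes of each library, since total RNA per cell was not measured. In bulk RNA, fewer cells with a transcript and less of it per cell cannot be told apart.

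HSPD1 (ENSG00000144381; chr2:197486581-197516737, minus strand, GRCh38), the HSP60 chamber, was the most abundant of the 10. Its normalized counts in the high MYC DMSO libraries were 12997, 13830.3, 14494 and 13978. In the medium MYC DMSO libraries they were 4797, 4698, 4365 and 4650.5. Every medium MYC library was therefore far below every high MYC library. The log2 difference was -1.58 (SE 0.032; limma's adjusted p = 1.12e-20), a 2.99-fold lower level, on the log2(value + 1) scale used for all differences here. Only 4.0% of the tested genes had a lower log2 difference. With IMP1088, HSPD1 was at 14298, 14347, 14387 and 14156 at high MYC and at 4783, 4608, 4504 and 4627 at medium MYC. These groups also did not overlap, and the level was 3.09-fold lower (log2 difference -1.63, limma's adjusted p = 6.61e-21). HSPD1 alone took 0.134% of reads in high MYC DMSO libraries and 0.0448% in medium MYC DMSO libraries.

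HSPE1 (ENSG00000115541; chr2:197499994-197503457, plus strand), the HSP10 lid, was at 1753, 1856, 2033 and 1872 in high MYC DMSO libraries. At medium MYC in DMSO it was at 724, 792, 790.3 and 804. The groups were well separated, with a log2 difference of -1.27 (SE 0.042; limma's adjusted p = 3.61e-17), or 2.41-fold. In IMP1088 it was at 1802, 1832, 1806 and 1798 at high MYC and at 732, 688, 692 and 708 at medium MYC, 2.57-fold lower (log2 difference -1.36, limma's adjusted p = 1.06e-17). The lid transcript thus fell less than the chamber transcript in both treatments, by intervals that did not overlap: in DMSO the 95% confidence interval of the log2 difference was -1.36 to -1.18 for HSPE1 and -1.65 to -1.51 for HSPD1.

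Among the TRiC subunits, TCP1 (chr6:159778498-159789749), the founding member of the family, had the largest difference. Its normalized counts were 1701, 1777, 1919 and 1865 at high MYC in DMSO and 1034, 970.0, 876 and 954 at medium MYC in DMSO. All medium MYC libraries lay below all high MYC libraries, with a log2 difference of -0.92 (SE 0.045; limma's adjusted p = 4.02e-14). CCT5 (chr5:10249921-10266412) was at 3867, 4031, 4213 and 4065 against 2289.6, 2339.8, 2375 and 2249. CCT5 was lower by -0.81 on the log2 scale (SE 0.029; limma's adjusted p = 1.26e-16).

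CCT2, CCT3 and CCT7 formed a middle group with nearly the same size of change. CCT2 (chr12:69585334-69601570) was at 2796, 3014, 3089 and 2882 at high MYC in DMSO and at 1763, 1703, 1698 and 1726 at medium MYC. CCT3 (chr1:156308968-156367873) was at 3820.0, 3903, 3895 and 3903 against 2348, 2265, 2326 and 2340.4. CCT7 (chr2:73233420-73253021) was at 4013, 3829.6, 4063 and 3799 against 2425, 2298, 2296 and 2309. None of these overlapped between MYC levels, and the log2 differences were -0.77, -0.74 and -0.75 (SE 0.034, 0.025 and 0.032). CCT8 (chr21:29055805-29073797) was at 3376, 3433, 3508 and 3559.7 against 2280.2, 2249, 2159.9 and 2235, a log2 difference of -0.64 (SE 0.030).

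CCT4 and CCT6A stood apart from the other subunits by the small size of their difference. CCT4 (chr2:61868089-61888804) was at 3057, 3268, 3372 and 3332 at high MYC in DMSO and at 2462, 2484, 2388 and 2536 at medium MYC. That was a log2 difference of -0.40 (95% confidence interval -0.46 to -0.34), with the groups still separate. CCT6A (chr7:56051630-56063989), which has a testis-rich paralog in CCT6B, was at 2458, 2525, 2702 and 2597 against 2306, 2228, 2188 and 2172. CCT6A was lower by only -0.21 (95% confidence interval -0.28 to -0.14; limma's adjusted p = 4.50e-06), and 37.7% of all tested genes had a lower log2 difference. Its highest medium MYC library and its lowest high MYC library were the closest of any member.

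By limma's test all 10 were called lower in DMSO, where 76.2% of the tested genes were called (38.9% higher and 37.3% lower). For all 10 the libraries of the compared groups were also without overlap. The share of all tested genes without overlap was not counted in either treatment. The median log2 difference was -0.76 over the 10 genes, -0.75 over the TRiC subunits and -1.42 over HSPD1 and HSPE1, beside 0.02 over all tested genes. In IMP1088 all 10 were again lower and without overlap, where 77.5% of genes were called (39.7% higher and 37.8% lower), and the median was -0.79 beside 0.02 over all tested genes. In IMP1088 the log2 difference was -1.0 for TCP1, -0.86 for CCT5, -0.82 for CCT2, -0.76 for CCT7, -0.70 for CCT3 and -0.69 for CCT8. CCT4 at -0.47 and CCT6A at -0.27 (limma's adjusted p = 1.33e-07) again had the smallest differences. These calls stood under every alternative scaling, filter, tool and left-out library that was run.

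**Figure D2:**
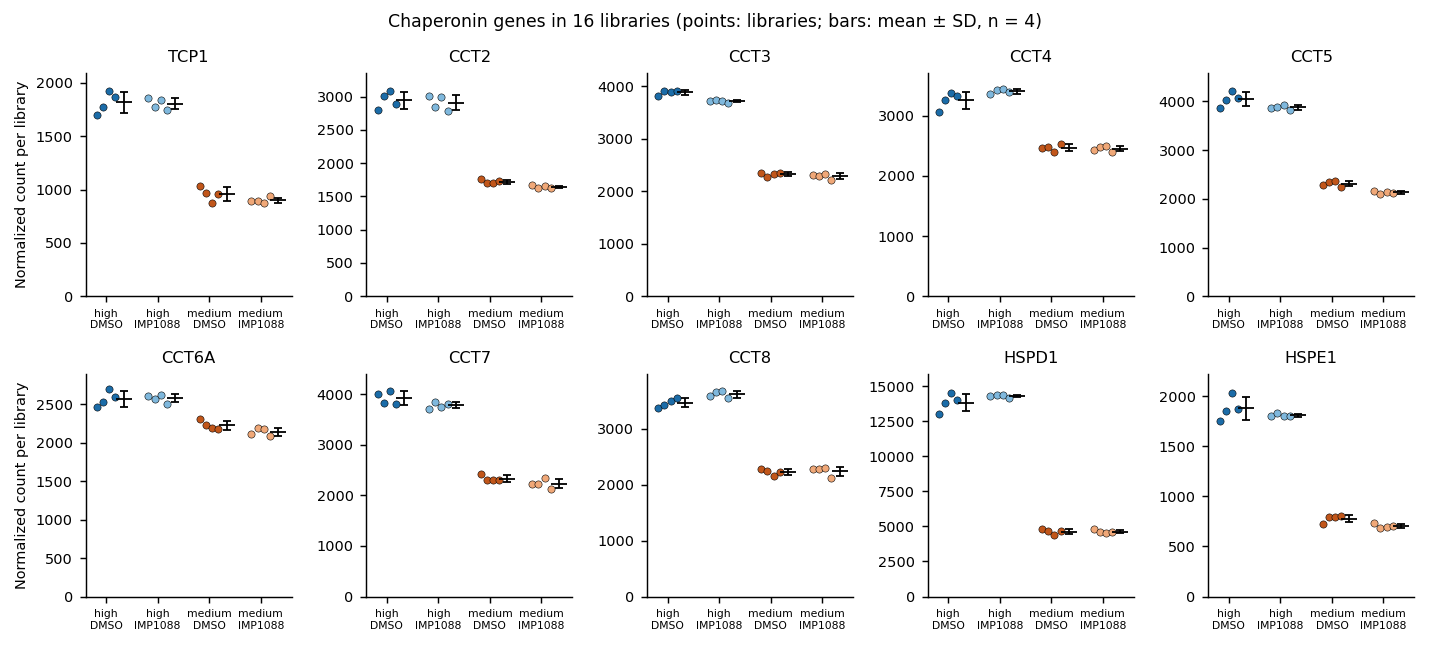
Normalized counts of the 10 chaperonin genes (vertical axes from 0) in each library, by MYC level and treatment, with the mean and SD of 4 libraries beside the points. Medium MYC libraries are below high MYC libraries in every panel, with the narrowest gap for CCT6A, while DMSO and IMP1088 libraries lie close together.

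Because the subunits changed unequally, the makeup of the TRiC transcripts shifted with MYC. The summed normalized count of the 8 subunits was 25908 ± 689 (SD, n = 4) at high MYC in DMSO and 16568 ± 249 at medium MYC. In IMP1088 it was 25678 ± 284 and 16029 ± 291. CCT6A made up 9.92% ± 0.150 of that sum at high MYC and 13.4% ± 0.204 at medium MYC in DMSO. The ranges, 9.79% to 10.1% and 13.1% to 13.6%, did not overlap. TCP1 went the other way, from 7.0% ± 0.199 to 5.78% ± 0.308. In IMP1088 the CCT6A share was 10.0% at high MYC and 13.4% at medium MYC. These shares are of normalized counts, not per length, and were not tested.

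The ratio of HSPD1 to HSPE1 normalized counts also differed between groups. It was 7.37 ± 0.159 at high MYC in DMSO and 5.97 ± 0.472 at medium MYC in DMSO (SD, n = 4), with ranges of 7.13 to 7.47 and 5.52 to 6.63. In IMP1088 it was 7.90 ± 0.0604 at high MYC and 6.57 ± 0.0856 at medium MYC. At each treatment the high MYC libraries were above all medium MYC libraries. Between treatments the ranges were separate at high MYC and overlapped at medium MYC, where replicate 1 in DMSO had the highest ratio of its group. The ratio was not tested.

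**Figure D3:**
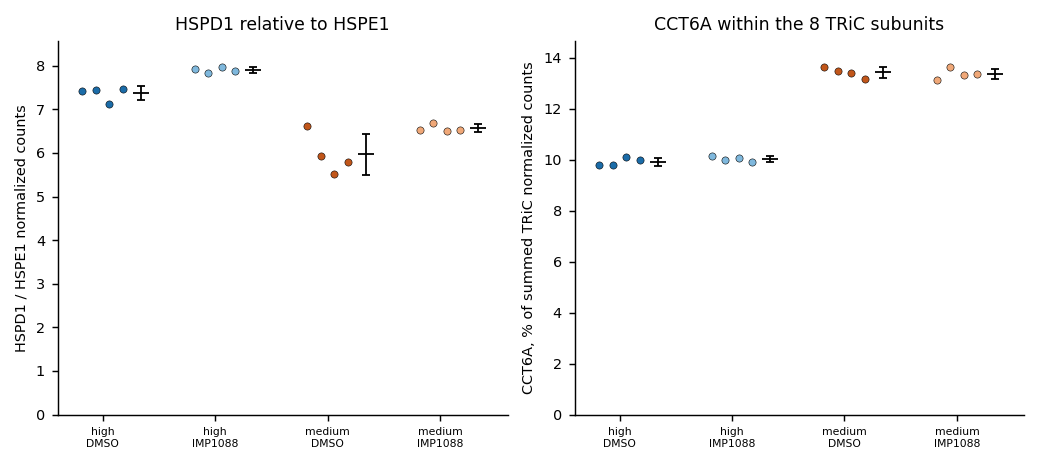
Left, HSPD1 normalized count divided by HSPE1 normalized count in each library. Right, CCT6A as a percent of the summed normalized counts of the 8 TRiC subunits. Bars are mean and SD of 4 libraries. The ratio is lower and the CCT6A share higher in the medium MYC groups.

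Levels per kb of the principal transcript place the genes on one scale. HSPD1 was highest in all groups, at 5631 normalized counts per kb at high MYC in DMSO and 1885 at medium MYC in DMSO. The TRiC subunits, which occur once each per ring, spanned 2.82-fold at high MYC in DMSO, from CCT7 at 2049 to TCP1 at 727, and 3.17-fold at medium MYC in DMSO, from CCT7 at 1217 to TCP1 at 383. TCP1 was the lowest of the 10 in all groups. HSPE1 was at 1977 per kb at high MYC in DMSO, and its libraries overlapped those of CCT7 there. At medium MYC in DMSO it was at 818 per kb and did not differ beyond its spread from CCT6A, also at 818, or from CCT2 at 844. CCT8 at 1113 and CCT3 at 1079 overlapped as well, whereas all other neighbours in the DMSO orders were separate. With these lengths HSPE1 went from the third place at high MYC to the seventh at medium MYC in DMSO. The places depend on the transcript chosen for each gene, which was 950 bases long for HSPE1. Some annotated HSPE1 transcripts begin before the RefSeq start given above. A shorter HSPE1 transcript would raise its level per kb in all groups and could change its places and overlaps. Other lengths were not tried.

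IMP1088 left the chaperonin transcripts within a few percent of DMSO at high MYC. In limma's test 0 of 10 were called (4 at an unadjusted p under 0.05, and 0 by edgeR or DESeq2), where 26.8% of tested genes were called (10.5% higher and 16.3% lower; with quantile normalization 1727 higher and 1770 lower, in place of 1442 and 2247). The log2 differences ran from -0.06 for CCT3 to 0.06 for CCT4, with SE from 0.025 to 0.045 and a median of -0.01 beside -0.02 over all genes. HSPD1 was 0.05 higher (95% confidence interval -0.02 to 0.12) and HSPE1 0.05 lower on the same scale (log2 difference -0.05, interval -0.14 to 0.04), and both intervals span 0. CCT3 came closest to the threshold, with a log2 difference of -0.06 (limma's adjusted p = 0.0694). With IMP1088, CCT3 was at 3710.1, 3732, 3725 and 3687, below all 4 DMSO libraries, and it was the only member whose groups did not overlap. How many of all tested genes were without overlap here was not counted. The 95% confidence intervals of the 10 genes, each taken on its own, lay between -0.14 and 0.13. They do not cover the choice of scaling.

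The high MYC DMSO replicate 1 library bears on this comparison. It was the deepest, at 13858534 reads, and the lowest of its group for 9 of 10 members. Without it CCT5 was called lower (log2 difference -0.08, limma's adjusted p = 0.0402). Some other settings called 1 or 2 members at high MYC, but never the same one throughout: CCT4 and CCT8 higher with quantile normalization, CCT3 lower in a fit of these groups only, and CCT5 lower after a GC correction.

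At medium MYC, CCT5 and HSPE1 were slightly lower with IMP1088. By limma's test 2 of 10 members were called lower and 0 higher, where 26.3% of tested genes were called (11.7% higher and 14.6% lower). The members were thus called no more often than all tested genes. The split over all genes, 1606 higher and 2012 lower, turned to 1962 and 1658 with equal library totals and to 1963 and 1876 with quantile normalization. The median over the members was -0.06 beside -0.01 over all tested genes. CCT5 was at 2289.6, 2339.8, 2375 and 2249 in DMSO and at 2170.5, 2098, 2147 and 2113 with IMP1088. The groups did not overlap, and CCT5 fell by 7.82% (log2 difference -0.12, SE 0.029; limma's adjusted p = 0.00364). It was called in every alternative run, with limma's, edgeR's or DESeq2's adjusted p from 8e-05 to 0.0303.

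HSPE1 fell by 9.32% with IMP1088 at medium MYC (log2 difference -0.14, SE 0.042; limma's adjusted p = 0.0160). Its groups overlapped, since the lowest DMSO library, replicate 1 at 724, was below the highest IMP1088 library at 732. The call was lost with libraries scaled to equal totals (log2 difference -0.11, limma's adjusted p = 0.0555) and without medium MYC DMSO replicate 4 (-0.12, limma's adjusted p = 0.0548). Its partner HSPD1 had a log2 difference of 0.00 (95% confidence interval -0.07 to 0.07; limma's adjusted p = 0.981). The other 7 members ran from -0.09 for TCP1 to 0.01 for CCT8, and were not called. CCT2 had a log2 difference of -0.07 (limma's adjusted p = 0.154) with groups that did not overlap, 1698 to 1763 in DMSO and 1625 to 1665 with IMP1088. After a GC correction, added after the data were seen, TCP1, CCT2 and CCT6A were also called lower, which made 5 of 10.

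The difference between the responses, IMP1088 against DMSO at high MYC minus the same at medium MYC, was called for 0 of 10 members, where 8.63% of tested genes were called (3.31% positive and 5.33% negative). At an unadjusted p under 0.05 the count was also 0, and edgeR and DESeq2 called 0. Values ran from -0.04 for CCT3 to 0.09 for HSPE1, with SE from 0.036 to 0.064 and limma's adjusted p from 0.355 to 0.938. For CCT5 the difference was 0.06 (95% confidence interval -0.03 to 0.14) and for HSPE1 0.09 (interval -0.03 to 0.21). The calls made at medium MYC were therefore not shown to differ from the values at high MYC.

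**Figure D4:**
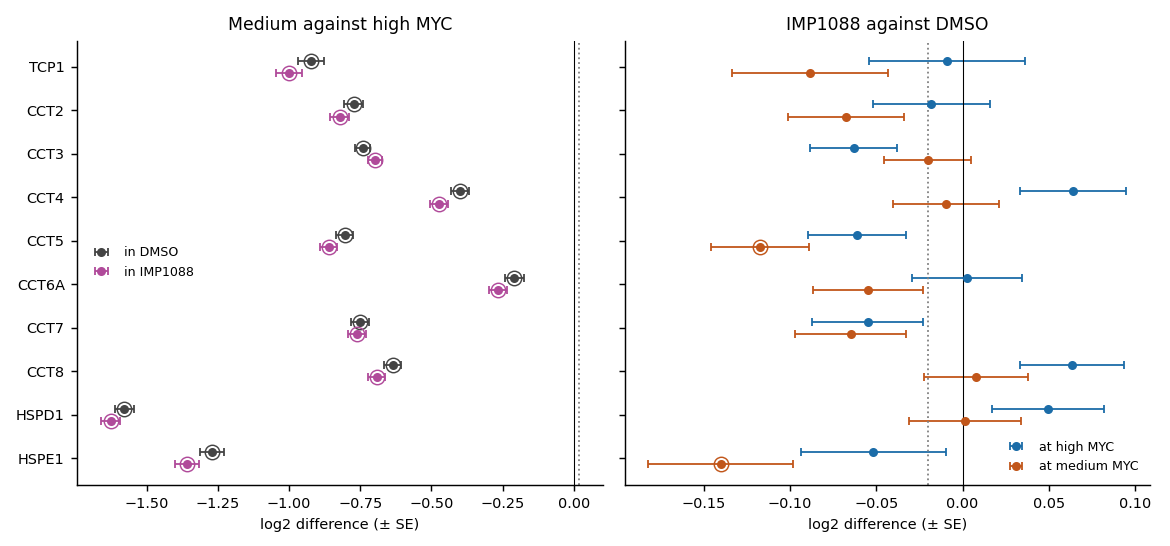
Log2 differences of the 10 genes with their SE: left, medium against high MYC in each treatment; right, IMP1088 against DMSO at each MYC level, on a narrower axis. Rings mark an adjusted p under 0.05, and the dotted line is the median of all tested genes in DMSO (left, 0.02) or at high MYC (right, -0.02). The MYC differences all lie below -0.20, and only CCT5 and HSPE1 at medium MYC are ringed on the right.

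Several features of the counting limit these values. The sources used here do not say whether strand was used, and HSPD1 and HSPE1 have overlapping exons on opposite strands, as do TCP1 and ACAT2, CCT4 and COMMD1, and CCT5 and an antisense gene. Reads of such pairs may not be separable. GENCODE lists 58 pseudogenes of the 10 genes, 26 of them for HSPE1 and 18 for HSPD1, and 2 had a mean of at least 10. These were CCT6P3 and CCT6P1, at 3.30% and 1.84% of the CCT6A mean. HSPE1-MOB4, a read-through gene that shares HSPE1 exons, had a mean of 40.6, or 3.14% of HSPE1.

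Genes for proteins that work with TRiC were called in both directions at medium MYC in DMSO, where 38.9% of all tested genes were called higher and 37.3% lower. Whether these short lists differ from those shares was not tested. Prefoldin, the jellyfish-shaped complex that hands actin and tubulin chains to TRiC, had 3 of 6 subunits lower and 1 higher at medium MYC in DMSO (median log2 difference -0.30, beside 0.02 over all tested genes). PFDN2 fell by 0.97 and PFDN6 fell by 0.60 on the log2 scale, and each passed limma's test (adjusted p = 5.08e-10 and 1.06e-06). Of the phosducin-like cofactors, which bind TRiC during folding, 2 of 3 tested were higher and 0 lower (median 0.37), with PDCL at 0.62 and TXNDC9 at 0.37. Tubulin cofactors, which take tubulin after its release, were split at 2 higher and 2 lower of 4 tested (median 0.06), with TBCA at -0.99 and TBCC at 0.55. The chaperonin-like genes had 2 of 4 tested higher and 1 lower in DMSO (median 0.30): BBS10 was at 0.50 and MKKS at -0.58, and both products belong to a complex that assembles the BBSome of cilia. In IMP1088 they had 0 higher and 1 lower (median 0.06), with MKKS at -0.65 and BBS10 at 0.12 (limma's adjusted p = 0.205). There prefoldin again had 1 higher and 3 lower, the phosducin-like cofactors 2 and 1, and the tubulin cofactors 1 and 2, beside 39.7% and 37.8% of all tested genes. CCT8L2, PDCL2 and TBCE were not tested.

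Genes for TRiC clients were mostly higher at medium MYC while the subunits were lower. Of 27 clients tested, 18 were higher and 5 lower in DMSO (median log2 difference 0.40), where 38.9% of all tested genes were called higher and 37.3% lower. ACTB, cytoplasmic beta-actin, was higher by 1.85, and ACTG1 by 0.94. The widest changes were in beta-tubulin isotypes. TUBB3, the isotype typical of neurons, went from 2024 ± 143 to 108 ± 14.7 normalized counts (SD, n = 4; log2 difference -4.22, limma's adjusted p = 1.08e-21). TUBB2A went from 116 ± 17.8 to 1202 ± 101 (log2 difference 3.38, limma's adjusted p = 3.63e-18). In both cases the libraries of the 2 MYC levels did not overlap. Tubulin genes are close paralogs, so how reads were split among them is uncertain. In IMP1088 the clients again had 18 higher, with 6 lower, beside 39.7% and 37.8% of all tested genes.

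With IMP1088 the clients had 13 of 27 lower and 1 higher at high MYC (median -0.16, beside -0.02 over all tested genes, of which 16.3% were called lower and 10.5% higher), and again 13 lower and 1 higher at medium MYC (median -0.12, beside -0.01 over all tested genes, of which 14.6% were called lower and 11.7% higher). The actins showed the largest of these changes. ACTB fell by 0.87 on the log2 scale at high MYC and fell by 0.70 at medium MYC, and ACTG1 fell by 0.77 and by 0.66. All 4 actin values passed limma's test, the weakest with adjusted p = 1.04e-11. The difference between responses was called for 7 of 27 clients, 3 positive and 4 negative, beside 8.63% of all tested genes, among them GNB4 at 0.46 and MLST8 at -0.42. The MLST8 call was lost under 1 alternative setting and with each of 4 libraries left out in turn.

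In mitochondria, the genes for other chaperones were mostly lower at medium MYC as well. Of 10 other chaperones and cochaperones, 9 were lower and 0 higher at medium MYC in DMSO (median log2 difference -0.97), where 37.3% of all tested genes were called lower and 38.9% higher, and the counts were the same in IMP1088. TRAP1, the mitochondrial HSP90, went from 3824 ± 99.8 to 796 ± 39.3 normalized counts (SD, n = 4; log2 difference -2.26, limma's adjusted p = 1.00e-20). GRPEL1, the nucleotide exchange factor of mitochondrial HSP70, had a log2 difference of -1.71, and HSPA9, the HSP70 itself, one of -0.96. HSCB, which serves iron-sulphur cluster assembly, was the exception at 0.07 (limma's adjusted p = 0.588). The mitochondrial proteases and processing enzymes had 5 of 10 lower and 2 higher in DMSO (median -0.22), with LONP1 at -0.77 and CLPX at -0.75. The 2 higher ones were HTRA2 at 0.58 and OMA1 at 0.55. In IMP1088, 5 were lower and 3 higher, beside 37.8% and 39.7% of all tested genes, with OMA1 at 0.80 and LONP1 at -0.72. Whether these counts differ from the shares of all tested genes was not tested.

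**Figure D5:**
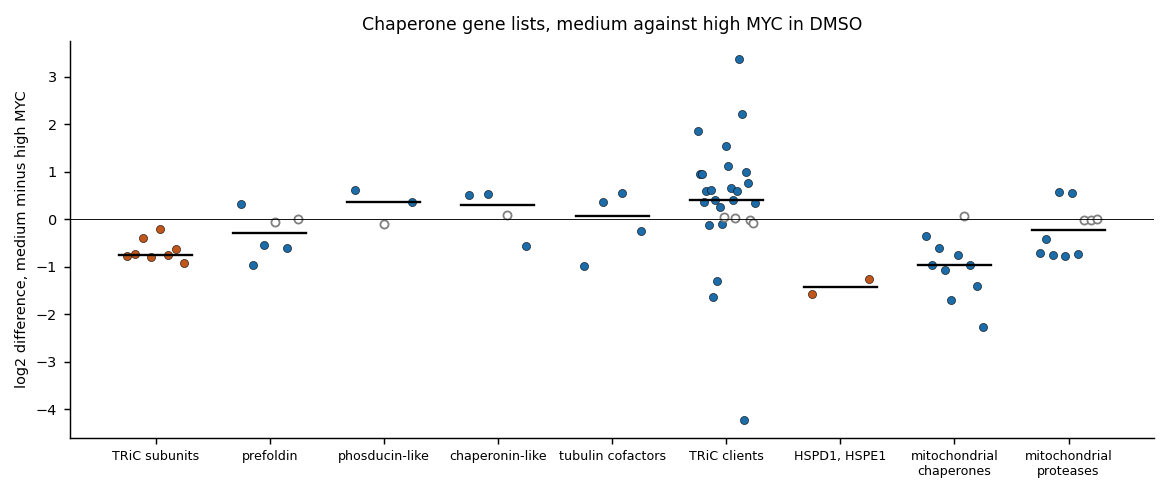
Log2 difference between medium and high MYC in DMSO for each tested gene of the chaperonins and 7 related lists. Filled points passed limma's test, open points did not, orange points are the chaperonin genes and bars are medians. TRiC subunits lie below 0, as do the mitochondrial chaperones other than HSCB, while TRiC clients spread from -4.22 to 3.38 with most above 0.

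With IMP1088, of the 37 genes tested in these lists, TRiC clients aside, 2 were called higher and 3 lower at high MYC, where 26.8% of all tested genes were called, and 4 higher and 3 lower at medium MYC, where 26.3% were called. Of the mitochondrial chaperones, HSPA9 and GRPEL2 were called higher at medium MYC. HSPA9 went from 3596 ± 54.0 in DMSO to 3975 ± 54.9 (SD, n = 4; log2 difference 0.14, limma's adjusted p = 1.05e-04), with no overlap. At high MYC, HSCB was higher by 0.34, and DNAJA3, a J-domain cochaperone, was at -0.15. Of the chaperonin-like genes BBS12, named after its value was seen, was higher at high MYC (0.53, limma's adjusted p = 0.0318). Its level was low, with a mean of 26.6 and at most 31 reads in the high MYC DMSO libraries. In prefoldin PFDN5 was higher (0.18) and PFDN1 lower (-0.14) at medium MYC. PFDN1's call was lost in 7 of 14 alternative settings and in 12 of the 16 runs with a library left out. The calls of HSCB, DNAJA3, PFDN5, CLPP, YME1L1 and TBCD were each lost in at least 1 setting or with a library left out. The phosducin-like PDCL3 was at -0.44 at medium MYC. Among the proteases CLPP was called at high MYC (-0.20) and YME1L1 at medium MYC (0.14), and among tubulin cofactors TBCD at high MYC (-0.16) and TBCB at medium MYC (-0.35). Of these lists, TRiC clients aside, limma called 0 of 37 genes for the difference between responses (6 at an unadjusted p under 0.05), beside 8.63% of all tested genes.

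The genes most like the chaperonins across all 16 libraries were found by the root-mean-square difference between centred log2 profiles, over 10893 genes whose mean was 50 or more. For the mean of the TRiC subunits the nearest were CS at 0.037, HMGB1 at 0.039, SET at 0.041, FAIM at 0.043 and UBTF at 0.045. The subunits themselves ranged from CCT3 at 0.038 to CCT6A at 0.22, so those 5 genes lay closer to the mean profile than most subunits did. For the mean of HSPD1 and HSPE1 the nearest were TXNRD1 at 0.048, SSB at 0.051, ACAT1 at 0.063, SSBP2 at 0.065 and PPIF at 0.069. These are descriptions of 16 libraries in 4 groups.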

How the data were processed

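RNA was extracted with a QIAGEN miRNeasy kit and libraries were made with a Nugen cDNA kit and read on an Illumina HiSeq, per the labels' protocols. The submitters' processing notes name STAR 2.5.2a, RSEM 1.2.31, DESeq2 1.16.1 and GRCh38, without their roles. The authors deposited 1 table of normalized counts, a non-negative signal for 58051 Ensembl identifiers in 16 libraries. Within each library every value (100.0%, tolerance 0.01) was a whole multiple of 1 step, which gave back whole reads. Intervals cover counting and replicate error only.

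Symbols matched 56948 identifiers. Positions are from GENCODE release 29. Log2(value + 1) was fitted with limma 3.58.1 (R 4.3.3) for the 13765 genes whose mean was 10 or more, with a mean trend, all 16 libraries in 1 fit of 4 group means, two-sided, Benjamini-Hochberg adjustment over all tested genes, and calls at an adjusted p under 0.05. The fits were run on simulated counts in which some genes changed in the high MYC IMP1088 group only. That simulation did not hold the wide differences between MYC levels seen here. Alternatives were other scalings (equal totals, TMM, quantile), pseudocounts of 0.1 and 10, no filter or a mean of at least 100, no mean trend, only the compared groups, a replicate block, count tests on the recovered reads (edgeR 4.0.16, DESeq2 1.42.0), each library left out, and a GC correction added after seeing the data. On the recovered reads edgeR called 10556 genes between MYC levels in DMSO, and 3703 at high and 3858 at medium MYC for IMP1088.

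All 10 members are named. Of each related list, up to 2 called genes with the largest difference per comparison and a mean of at least 50 are named; HSPA9, HSCB and a few others beside them were chosen after their values were seen. The members and lists were chosen with earlier results of these data known. Comparisons that share a control group share its libraries, and no relation between them is given. No protein sequences were used here.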

Additional observations from a re-analysis of the deposited data

Results flagged for a closer look

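For each of the 10 genes the 4 libraries of each group were checked for a library far from the other 3, by the gap to its nearest neighbour divided by the whole range. Of 40 such groups 3 exceeded Dixon's 95% critical value for 4 values, and chance alone flags about 1 in 20. CCT3 in high MYC DMSO was lowest in replicate 1, at 3820.0 against 3895 to 3903 in the other libraries (gap over range 0.905). CCT7 in medium MYC DMSO was highest in replicate 1, at 2425 against 2296 to 2309 (0.894). CCT8 in medium MYC with IMP1088 was lowest in replicate 4, at 2122 against 2278 to 2294 (0.908). High MYC DMSO replicate 1 is the library that was lowest of its group for 9 of 10 members.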

How the results depend on the processing

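Both MYC comparisons called all 10 members lower in every setting run, and each of their 300 member values kept its direction and call. For IMP1088 at high MYC, where 0 were called, quantile normalization called 2, a fit of the compared groups only called 1, the GC correction called 1, the GC correction with the replicate block called 1, and leaving out a library gave 0 to 1. At medium MYC, where 2 were called, equal totals called 1, the GC correction called 5, also with the replicate block, and leaving out a library gave 1 to 3. TCP1 was called without medium MYC DMSO replicate 3 (-0.13) and CCT7 without medium MYC IMP1088 replicate 3 (-0.09). The replicate block alone called the main numbers, 10, 10, 0, 2 and 0. Same-numbered libraries did not deviate together (mean r -0.019 over 24 pairs, from -0.154 to 0.239), so the numbers were not taken as pairs.

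Values near 0 that changed sign, none of them called, were as follows. At high MYC, TCP1 was 0.00884 with equal totals, 0.0354 with quantile normalization and -0.0398 to 0.0181 with a library left out; CCT2 was 0.020 with quantile normalization and -0.0427 to 0.00526 with a library left out; CCT6A was -0.0213 with the GC correction, with or without the block, and -0.0187 to 0.0269 with a library left out. At medium MYC with equal totals CCT3 was 0.0078 and CCT4 0.0187. CCT4 was also 0.0226 with quantile normalization, 0.00176 with TMM, 0.00148 with edgeR and -0.0249 to 0.00387 with a library left out. With the GC correction, with or without the block, CCT8 was -0.0287 and HSPD1 -0.0296 at medium MYC, and with a library left out they ran from -0.00777 to 0.0344 and from -0.0263 to 0.019. The difference in response of CCT7 was -0.000153 with equal totals and -0.0112 to 0.0352 with a library left out. The cause of these changes was not tested. The fit of compared groups only does not exist for the difference in response. With SE of 0.025 to 0.045, changes of a few percent were near the limit of detection.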

Other observations

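Genes with CACGTG in a RefSeq promoter window were compared with genes without it, as values only. Of the 1275 tested genes with a match, 48.1% were called lower at medium MYC in DMSO, with a median log2 difference of -0.13. Of the 8615 with windows but no match, 36.3% were called lower, with a median of 0.06. In IMP1088 the shares were 49.3% and 36.4%. HSPD1 and HSPE1 are among the genes with a match, while the TRiC subunits with a window, all of them lower, had none.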
